A study of Mus musculus with 6 samples.

Results

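The complement system was examined in fracture callus through 31 listed genes that encode its components, receptors and regulators. A gene counted as measured where at least 1 probe set carried its symbol and no other, and where it had several, the one with the highest average level stood for it. By this rule 28 of the 31 genes were measured, on 49 probe sets, among 18193 genes in all. C3, C4b and C7 had no probe set with a single symbol and are not analysed here. The tested callus was 3 samples from Cyp24a1 (-/-) mice, called null, which lack the enzyme that inactivates the hormonal form of vitamin D. It was set against 3 callus samples from Cyp24a1 (+/-) mice, called heterozygous, which still carry 1 disrupted allele, so no wild-type callus entered the comparison. All mice were of a C57BL6J x 129SV mixed background and 12 weeks old, underwent a tibial osteotomy held by an intramedullary rod, and gave callus, the repair tissue at the break, at day 14. Total RNA was hybridised to Affymetrix Mouse 430_2 arrays, and all values below are log2 values of probe sets.

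Complement is a cascade of plasma and cell-surface proteins that tags particles and damaged cells for uptake, recruits leukocytes and can perforate membranes. The classical pathway starts when C1q binds its target and switches on the proteases C1r and C1s. The lectin pathway starts with mannose-binding lectins and ficolins and their MASP proteases, and the alternative pathway is carried by factor B and properdin. All of them lead to convertases that cleave C3 and then C5, releasing the peptides C3a and C5a and opening the way to the membrane attack complex. The liver makes most circulating components, whereas C1q and properdin are made largely by myeloid cells. Bone and cartilage cells also make complement proteins, and receptors for C3a and C5a are found on leukocytes and cells of the osteoclast lineage.

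The arrays had medians of 4.55 to 4.59, and Pearson's r between them, across probe sets, ran from 0.970 to 0.991. Callus genes were present on every array, with the bone collagen gene Col1a1 at 13.57 to 14.28 and the bone sialoprotein gene Ibsp at 9.46 to 10.44. Muscle RNA was present too, with the actin gene Acta1 at 14.40 to 14.49. Xist on arrays without it and Y-linked transcripts on arrays with Xist gave values of 1.77 to 3.52, and 3.52 is used below as the silent level, a guide to background chosen after values were seen. The targeted gene Cyp24a1, on its 2 probe sets, had values of 3.12 to 3.65 in null callus and 2.71 to 3.69 in heterozygous callus, near the silent level in both groups, so it does not check the genotype labels. Null replicate 1 and heterozygous replicate 3 had few marrow transcripts and stood apart from the rest. Centred on each gene's own average, 13 neutrophil genes had means of -2.88 and -3.48 on them and between 1.32 and 1.94 on the other 4 arrays, and that of 8 erythroid genes was -2.49 and -2.09 against 0.69 to 1.41. For many genes below, though not for all, the difference between the groups is also given without 1 of these arrays or without both. Each sample carries its own number as a title, and no label says whether that number is a mouse. In each group 1 array had high Xist and the other 2 had Y-linked transcripts, so each group holds callus of more than 1 animal, and the p-values reflect sample-to-sample spread.

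Promoter sequences are shown for 4 genes picked by the patterns of their values described below. The C1q chain genes C1qb and C1qc and the C3a receptor gene C3ar1 had the same order of arrays, as did C1qa, which had no listed promoter. Properdin, Cfp, was the one gene of the 28 whose groups did not overlap, against 10.1% of all genes. On its second probe set the groups overlapped. Each sequence runs from 250 bases before to 50 bases after the gene's start, 300 bases in all, 5′ to 3′ on the gene's strand. The sequences are from RefSeq on GRCm38.p6, the build of that table and not a build named by the deposited values. Each of the genes lies on the minus strand, at chr4:136886151-136886450, chr4:136892865-136893164, chr6:122856108-122856407 and chrX:20931506-20931805 in the order printed. Capitals mark GAGGAA, or TTCCTC where it lies on the other strand, a core form of the site bound by the myeloid factor PU.1.
C1qb: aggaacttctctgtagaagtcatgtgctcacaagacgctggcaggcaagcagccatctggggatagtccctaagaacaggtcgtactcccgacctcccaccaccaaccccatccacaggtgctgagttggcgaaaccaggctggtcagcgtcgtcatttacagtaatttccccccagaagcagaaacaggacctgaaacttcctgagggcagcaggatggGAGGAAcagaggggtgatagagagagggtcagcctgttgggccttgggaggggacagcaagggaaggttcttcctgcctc
C1qc: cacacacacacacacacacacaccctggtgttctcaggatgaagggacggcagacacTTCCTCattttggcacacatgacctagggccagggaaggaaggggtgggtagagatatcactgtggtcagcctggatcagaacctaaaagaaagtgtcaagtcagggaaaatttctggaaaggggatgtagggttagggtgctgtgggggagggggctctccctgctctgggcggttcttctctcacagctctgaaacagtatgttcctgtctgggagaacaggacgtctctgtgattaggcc
C3ar1: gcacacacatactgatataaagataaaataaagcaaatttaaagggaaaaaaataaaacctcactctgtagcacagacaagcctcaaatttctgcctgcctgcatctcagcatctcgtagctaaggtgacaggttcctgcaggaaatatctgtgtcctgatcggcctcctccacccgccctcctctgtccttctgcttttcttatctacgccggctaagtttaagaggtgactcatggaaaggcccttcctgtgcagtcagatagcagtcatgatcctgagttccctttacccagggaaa
Cfp: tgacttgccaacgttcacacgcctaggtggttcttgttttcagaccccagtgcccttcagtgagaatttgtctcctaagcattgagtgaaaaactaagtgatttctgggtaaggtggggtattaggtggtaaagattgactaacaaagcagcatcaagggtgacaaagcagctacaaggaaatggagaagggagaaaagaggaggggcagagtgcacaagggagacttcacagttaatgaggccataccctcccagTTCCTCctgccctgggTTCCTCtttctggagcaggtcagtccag
GAGGAA occurred once in the C1qb window, once in that of C1qc and at 2 places in that of Cfp, and these letters are not in the C3ar1 window. It was found in 6 of the 21 measured genes with a listed promoter, and in 28.3% of 32851 promoters of the same length. The kappaB site, bound by NF-kB, was in 1 of the 21, that of C1qc, and in 4.51% of all promoters. The DR3 element, the direct repeat bound by the vitamin D receptor with its partner, was in 0 of the 21 and in 0.0396% of all promoters. Both strands were searched for each motif, the motifs can overlap, and a match is a stretch of letters and not a shown binding site.

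The comparison asked which complement transcripts differ in callus without Cyp24a1. Cfp, Cfb, the C1q chains, C5ar1 and Fcna had the highest differences, at 1.34- to 1.72-fold higher in null callus, but 0 of the 28 genes passed limma's test (threshold 0.05 after adjustment over all 45037 probe sets), with an adjusted p of 0.999 for each. Among all probe sets 0% passed, with a lowest adjusted p of 0.775. At an unadjusted p under 0.05 there was 1 of the 28, Cfp, against 4.49% of all genes, 2.06% with the null level higher. The groups did not overlap for 1 of the 28, again Cfp, against 10.1% of all genes, 4.14% with null callus higher, so these counts lie near the background. The difference was above 0 for 21 of the 28, against 49.6% of all genes, with a median of 0.21 over the 28 against -0.0017 over all genes. For 24 of the 28 the difference was smaller than the pooled SD of the replicates, as it was for 12828 of all 18193 genes.

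**Figure D1:**
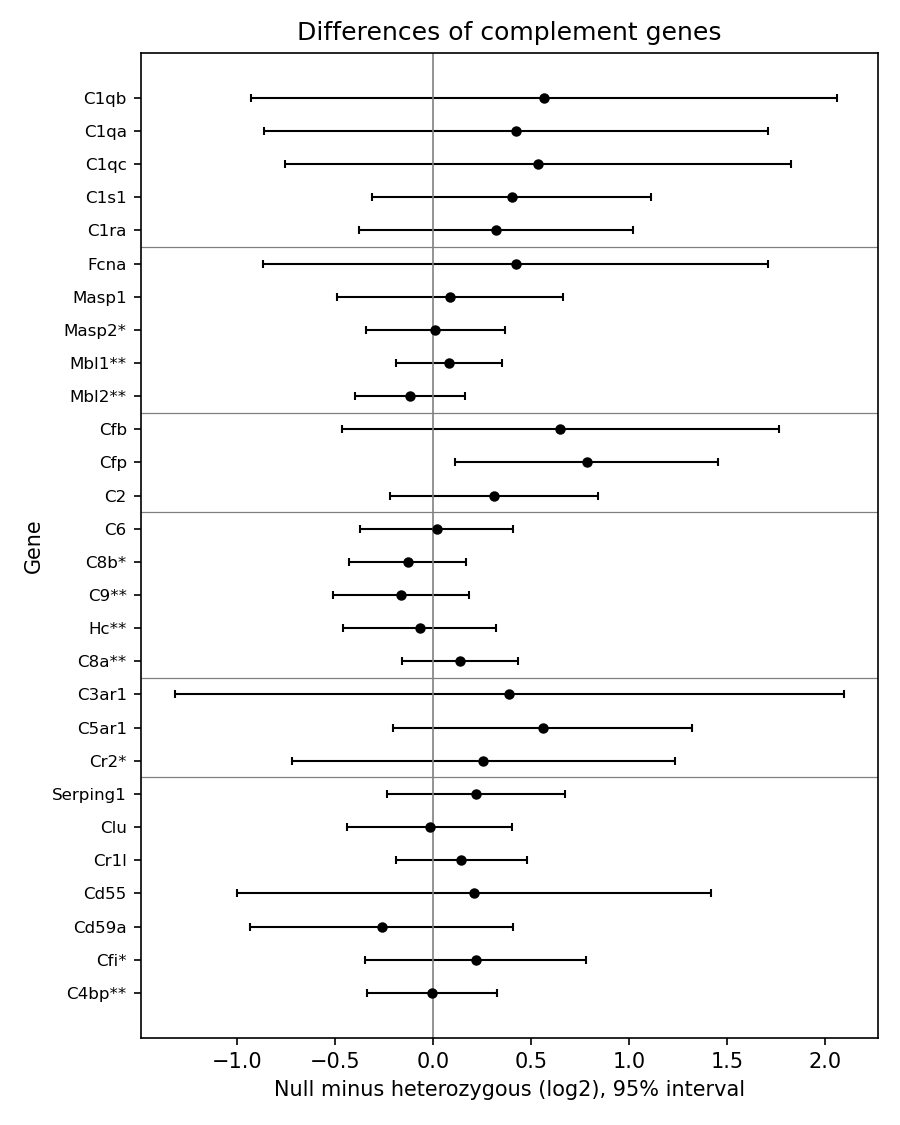
Null minus heterozygous difference of each measured complement gene on the log2 scale, with limma's 95% interval (3 null and 3 heterozygous arrays), ordered by role from the C1 complex at the top to the regulators. A star marks genes above the silent level on some arrays and a double star those above it on none. Only the interval of Cfp, 0.11 to 1.45, leaves out 0.

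The C1q molecule is built of A, B and C chains, and the genes of all of them, C1qa, C1qb and C1qc, were well above the silent level on every array. C1qa had values of 11.21, 9.34 and 10.06 in null replicates 1 to 3, against 9.78, 9.10 and 10.47 in heterozygous replicates 1 to 3. C1qb was measured at 11.94, 9.94 and 10.92 in null callus and at 10.31, 9.49 and 11.32 in heterozygous callus. C1qc stood at 11.09, 9.22 and 10.16 in null callus and at 9.46, 9.02 and 10.38 in heterozygous callus. All of them were high on null replicate 1 and heterozygous replicate 3 and low on null replicate 2 and heterozygous replicate 2, and the groups overlapped. C1qa averaged 10.20 ± 0.94 in null and 9.78 ± 0.68 in heterozygous callus (SD, n = 3 each), a difference of 0.42 (SE 0.53, 95% interval -0.86 to 1.71). For C1qb the difference was 0.56 (SE 0.62, 95% interval -0.93 to 2.06), and its other 2 probe sets gave 0.41 and 0.31. For C1qc it was 0.53 (SE 0.54, 95% interval -0.75 to 1.82). Within the null arrays alone the chains spanned 1.87 to 1.997, more than 3 times any of these differences. Without null replicate 1 the differences were -0.08, 0.06 and 0.07 in the order C1qa, C1qb, C1qc, and without null replicate 2 they were 0.85, 1.06 and 1.004. Leaving out heterozygous replicate 2 gave 0.08, 0.12 and 0.23, and leaving out heterozygous replicate 3 gave 0.76, 1.04 and 0.92. Among the marrow-rich arrays the differences were 0.26, 0.54 and 0.45, and between the marrow-poor arrays, with 1 array a group, 0.74, 0.62 and 0.70.

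The proteases of the C1 complex varied less. C1ra, which encodes C1r, gave 8.46, 7.92 and 8.44 in null callus and 7.92, 7.44 and 8.499 in heterozygous callus. C1s1, which encodes C1s, gave 8.85, 8.40 and 9.09 in null callus and 8.40, 7.85 and 8.89 in heterozygous callus. Heterozygous replicate 2 was the lowest array for both, as for the C1q chains, and heterozygous replicate 3 lay within the null values for C1s1 and above them for C1ra. The differences were 0.32 (SE 0.29) for C1ra and 0.40 (SE 0.30) for C1s1. They were 0.06 and 0.14 without heterozygous replicate 2, and 0.59 and 0.65 without heterozygous replicate 3. Among the marrow-rich arrays they were 0.50 and 0.62, without overlap of the groups, a pattern that 43.2% of all genes showed with 2 against 2 arrays.

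**Figure D2:**
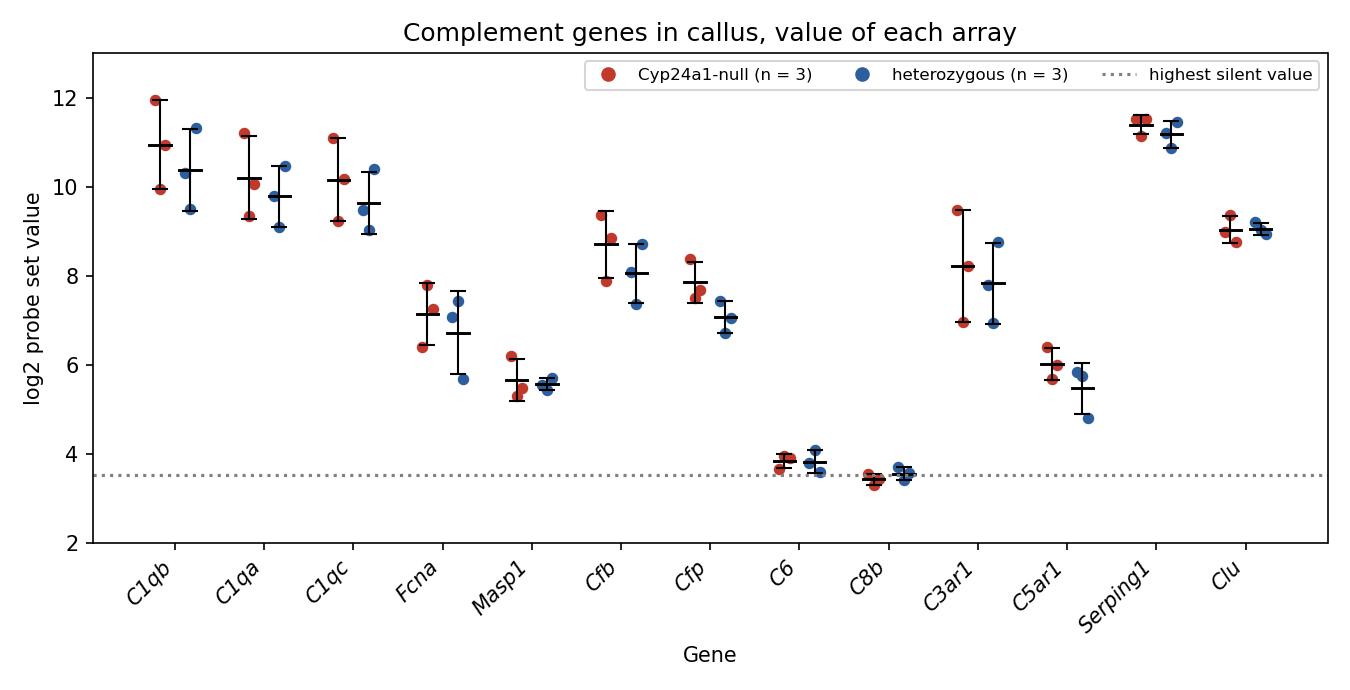
Log2 probe set value of each array for 13 complement genes, ordered by role, null arrays left and heterozygous arrays right of each position, with the mean as a bar and the SD as whiskers (n = 3 each); the dotted line is the silent level of 3.52. The groups overlap for each gene except Cfp, and C6 and C8b lie at or near the line.

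Of the convertase components, factor B and properdin belong to the alternative pathway and C2 to the classical and lectin pathways. Cfp, the gene of properdin, which stabilises the alternative pathway convertase, had values of 8.37, 7.49 and 7.68 in null callus, against 7.42, 6.71 and 7.06 in heterozygous callus. Each null value lay above each heterozygous value, with a gap between the groups much smaller than the spread within either. The means were 7.85 ± 0.46 in null and 7.06 ± 0.36 in heterozygous callus (SD, n = 3 each), a difference of 0.78 (SE 0.28) or 1.72-fold. The unadjusted limma p was 0.0285 and the adjusted p 0.999. An exact permutation test, two-sided, gave p = 0.1, the smallest possible with 3 arrays a group. Groups of that size without overlap always give this value, so it adds nothing to the separation seen. The second Cfp probe set gave 6.76, 6.27 and 6.84 in null callus and 6.52, 6.65 and 6.58 in heterozygous callus, a difference of 0.04 (SE 0.17) with overlapping groups. With the mean of both probe sets the difference was 0.41, and the groups overlapped. It was 0.52 without null replicate 1 and 0.52 among the marrow-rich arrays. Between the marrow-poor arrays it was 1.31.

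Cfb, the gene of factor B, the protease of the alternative pathway convertase, was at 9.36, 7.88 and 8.85 in null callus and at 8.08, 7.37 and 8.70 in heterozygous callus. Null replicates 1 and 3 lay above all heterozygous arrays, and null replicate 2 below 2 of them. The difference was 0.65 (SE 0.46) or 1.57-fold. Leaving out null replicate 1 gave 0.32, heterozygous replicate 2 0.31, null replicate 2 1.06 and heterozygous replicate 3 0.97. Among the marrow-rich arrays it was 0.64 and between the marrow-poor arrays 0.66. C2, the protease subunit of the classical convertase, gave 7.59, 7.30 and 7.52 in null callus and 6.77, 7.11 and 7.60 in heterozygous callus. Its difference was 0.31 (SE 0.22), with one direction on all 3 of its probe sets. It was 0.53 without heterozygous replicate 3, where the groups did not overlap, as in 27% of all genes with that array left out, and 0.11 without heterozygous replicate 1.

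Most of the lectin pathway genes were near background. Mbl1 and Mbl2, the mannose-binding lectins made by the liver, were at or under the silent level on all 6 arrays, between 2.35 and 3.15. Masp2, the protease that cleaves C4 and C2, lay between 3.28 and 3.68. Masp1, a protease of the same complexes, gave 6.18, 5.29 and 5.47 in null callus and 5.55, 5.43 and 5.70 in heterozygous callus, a difference of 0.09 (SE 0.24). Null replicate 1 stood above the other arrays, and without it the difference was -0.18. Of its 5 probe sets, 3 had the direction given and 2 the other. Fcna, the gene of ficolin A, a soluble lectin made by macrophages in mice, gave 6.39, 7.78 and 7.25 in null callus and 7.06, 7.43 and 5.67 in heterozygous callus. It was low on the marrow-poor arrays, the reverse of the C1q chains. The Fcna difference was 0.42 (SE 0.54), 0.80 without null replicate 1 and -0.10 without heterozygous replicate 3. It was 0.27 among the marrow-rich arrays and 0.72 between the marrow-poor arrays.

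The terminal components, which form the membrane attack complex, were near background as well. C8a, C9 and Hc, the mouse gene of C5, lay at or under 3.52 on all 6 arrays, between 2.42 and 3.49. C8b lay on both sides of that level, at 3.54, 3.29 and 3.43 in null callus and 3.69, 3.40 and 3.56 in heterozygous callus. C6 gave 3.66, 3.95 and 3.90 in null callus and 3.79, 4.09 and 3.58 in heterozygous callus, a difference of 0.02 (SE 0.16). Of 14 hepatocyte genes measured beside them, 6 were under the silent level on every array and 5 above it on every array. Among all 18193 genes these counts were 3992 and 12736. Albumin, Alb, was at 3.64 to 3.91 in null callus and 3.61 to 4.41 in heterozygous callus, a little above that level. The list means overlapped, at -0.12 to 0.09 in null and -0.08 to 0.15 in heterozygous callus. The groups did not overlap for 3 of the 14, Apoa1, Apoa2 and Ttr, each lower in null callus, against 10.1% of all genes. Cyp2e1 had the highest difference of the list, 0.80 (SE 0.75).

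**Figure D3:**
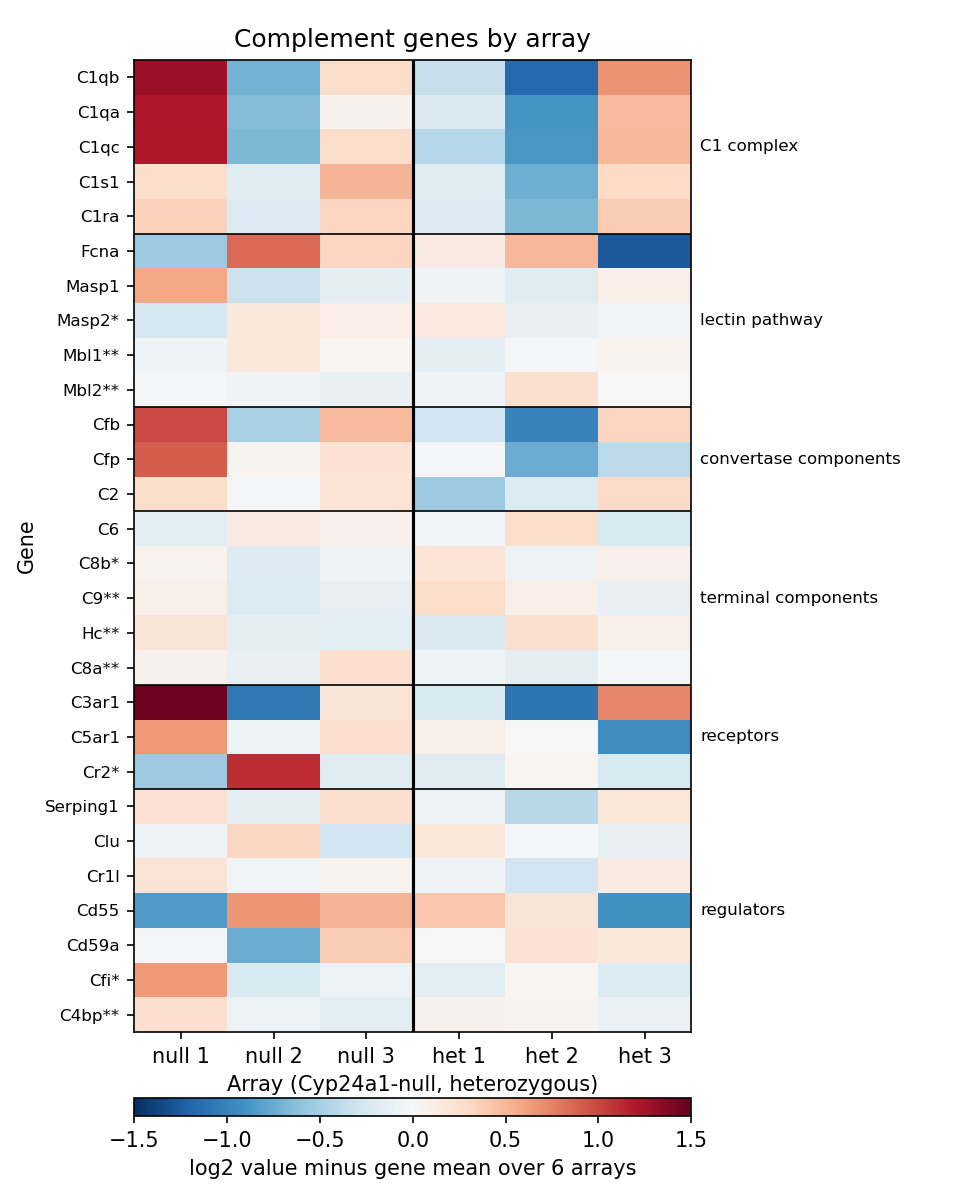
Log2 value of each measured complement gene on each array minus that gene's mean over the 6 arrays, null arrays left of the line and heterozygous arrays right of it, in rows ordered by role; red is above the mean, blue below it, and stars mark genes above the silent level on some (1 star) or no (2 stars) arrays. The C1q chains and C3ar1 are red on null replicate 1 and heterozygous replicate 3, where Fcna and Cd55 are blue.

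Among the receptors, C3ar1 and C5ar1 encode the receptors of the peptides C3a and C5a. C3ar1 had values of 9.48, 6.96 and 8.22 in null callus and 7.80, 6.94 and 8.75 in heterozygous callus. Its null arrays alone spanned 2.52, and its difference was 0.39 (SE 0.71, 95% interval -1.32 to 2.09). The C3ar1 difference became -0.24 when null replicate 1 was left out, -0.06 when heterozygous replicate 2 was, and 1.02 when null replicate 2 was. Its other 2 probe sets gave 0.57 and 0.60. Among the marrow-rich arrays the C3ar1 difference was 0.22 and between the marrow-poor arrays 0.73.

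C5ar1 gave 6.39, 5.68 and 5.99 in null callus and 5.83, 5.75 and 4.81 in heterozygous callus. Heterozygous replicate 3, high for C3ar1, was the lowest array for C5ar1. The C5ar1 difference was 0.56 (SE 0.32), and 0.63 on its second probe set. It was 0.23 without heterozygous replicate 3 and 0.05 among the marrow-rich arrays, against 1.58 between the marrow-poor arrays. Cr2, the receptor for C3 fragments on B cells, lay at 2.67, 4.31 and 3.03 in null callus and 3.02, 3.24 and 2.98 in heterozygous callus, above the silent level on null replicate 2 alone.

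The regulators had differences of -0.26 to 0.22. Serping1, the gene of the C1 inhibitor, which blocks C1r, C1s and the MASPs, had values of 11.51, 11.14 and 11.52 in null callus and 11.19, 10.86 and 11.46 in heterozygous callus. Heterozygous replicate 3 lay within the null values, and the difference was 0.22 (SE 0.19), or 0.07 without heterozygous replicate 2. Clu, the gene of clusterin, which binds the forming membrane attack complex, gave 8.98, 9.35 and 8.75 in null callus and 9.20, 9.01 and 8.93 in heterozygous callus. Its difference was -0.02 (SE 0.18, 95% interval -0.44 to 0.40), with one sign on all 4 of its probe sets, but it was 0.0050 without null replicate 1, 0.12 without null replicate 3 and 0.06 without heterozygous replicate 1. Cr1l, which encodes the mouse membrane regulator Crry, differed by 0.14 (SE 0.14). Leaving out null replicate 1 gave 0.08 for Cr1l, heterozygous replicate 2 0.04 and heterozygous replicate 3 0.24. Cd59a, which blocks C9 insertion, differed by -0.26 (SE 0.28), by 0.05 without null replicate 2 and by -0.52 without null replicate 3.

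Cd55, the decay-accelerating factor, was at 6.86, 8.37 and 8.22 in null callus and 8.11, 7.91 and 6.80 in heterozygous callus. It was low on the marrow-poor arrays in both groups, like Fcna, and its difference was 0.21 (SE 0.50). Without null replicate 1 the Cd55 difference was 0.69, and without heterozygous replicate 3 it was -0.19. It was 0.46 without heterozygous replicate 1, 0.36 without heterozygous replicate 2, -0.07 without null replicate 2 and 0.0065 without null replicate 3, so both its size and its sign turned on single arrays. Among the marrow-rich arrays it was 0.28 and between the marrow-poor arrays 0.06. Cfi, the protease factor I that degrades C3b and C4b, lay between 3.39 and 4.24, above the silent level on 2 arrays. C4bp, the fluid-phase cofactor of factor I, lay between 2.88 and 3.29, under that level on all arrays.

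Across arrays, C1qa, C1qb, C1qc and C3ar1 had one and the same order, from null replicate 1 at the top through heterozygous replicate 3, null replicate 3, heterozygous replicate 1 and null replicate 2 to heterozygous replicate 2. The order, with its top and bottom arrays, was read from C1qa in these same data, so C1qa matches it by definition. It was found in 4 of the 28 complement genes, C1qa and the other C1q chains among them, and in 1.74% of all genes. These counts describe the arrays and test nothing. These points share the same 6 RNA samples. Among 20 macrophage genes, 7 had that order too: Adgre1, Fcgr1, Mpeg1, Ms4a7, Ctss, Aif1 and Cx3cr1. Of the 26 further complement genes described below, 0 had it. Null replicate 1 was the top array and heterozygous replicate 2 the bottom array in 7 of the 28 complement genes and 14 of the 20 macrophage genes. The same held for 3 of the 26 further complement genes and 8.05% of all genes.

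The macrophage list mean was 0.86, -0.27 and 0.21 in null callus and -0.22, -0.72 and 0.15 in heterozygous callus. Of its 20 genes 19 had a difference above 0, against 49.6% of all genes, with a median of 0.47. In limma's test 0 of them passed (adjusted p = 0.999 for the lowest) and 4 had an unadjusted p under 0.05, against 4.49% of all genes. The macrophage markers Adgre1, Cd68 and Csf1r were above the silent level on every array, Marco on 5 arrays and Timd4 on 1. Other marker lists varied across the arrays too. Of 10 fibroblast genes 8 had a difference above 0, against 49.6% of all genes, with a median of 0.33. Of the 10, 9 had their lowest value on heterozygous replicate 2, against 3208 of all 18193 genes. The fibroblast list mean was -0.13 to 0.29 in null and -0.45 to 0.15 in heterozygous callus. All 10 endothelial genes had a difference above 0, against 49.6% of all genes, with a median of 0.26. On heterozygous replicate 2, 6 of them were lowest, against the same 3208 of all 18193 genes. The endothelial list mean was 0.05 to 0.28 in null and -0.36 to 0.18 in heterozygous callus. Of 9 osteoblast genes 7 had a difference below 0, against 9161 of all 18193 genes, with a median of -0.32. The osteoblast list mean was -0.38 to 0.16 in null and 0.05 to 0.19 in heterozygous callus. No gene of these 3 lists passed limma's test. An unadjusted p under 0.05 was found for 2, both osteoblast genes with lower null values, against 4.49% of all genes. In further lists, all 10 skeletal muscle genes (median -0.06) and 7 of 10 chondrocyte genes (median -0.20) had a difference below 0. So did 6 of 9 osteoclast genes, 5 of 8 adipocyte genes and 4 of 11 B cell genes, against 9161 of all 18193 genes. The part that any of these cell types had in the values of the complement genes was not tested. In bulk callus fewer cells of a type and less RNA per cell cannot be told apart. Null replicate 1, the highest array for the C1q chains and C3ar1, was also 1 of the 2 arrays with high Xist. The other, heterozygous replicate 1, was not high for the C1q chains and C3ar1. Null replicate 1 was the top array for 11 of the 28 complement genes, against 4549 of all 18193 genes.

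**Figure D4:**
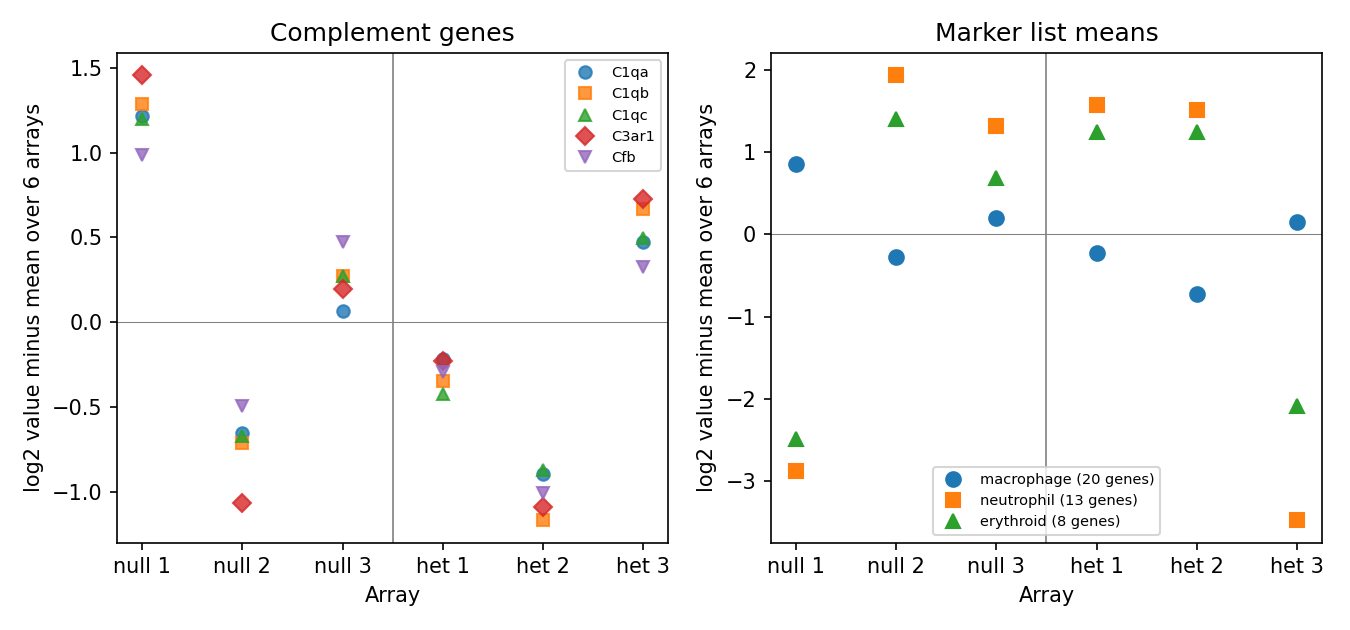
Log2 values minus their mean over the 6 arrays, by array, for 5 complement genes (left) and for the means of the macrophage, neutrophil and erythroid marker lists (right), null arrays left of the grey line. The C1q chains and C3ar1 follow the macrophage list in having null replicate 1 at the top and heterozygous replicate 2 at the bottom, whereas the neutrophil and erythroid lists have their lowest means on null replicate 1 and heterozygous replicate 3.

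The rest of the pathway was described by a list of 35 further complement genes, of which 26 were measured. Of these 15 had a difference above 0, against 49.6% of all genes, with a median of 0.03. In limma's test 0 passed (adjusted p = 0.999 for the lowest), and 2 had an unadjusted p under 0.05 (4.49% of all genes). On every array 9 were under the silent level, as were 3992 of all 18193 genes. Cfd, the gene of factor D, had no probe set with a single symbol and is not analysed here. Ptx3, a long pentraxin that binds C1q, had values of 7.61, 6.57 and 6.9996 in null callus and 6.03, 5.88 and 6.28 in heterozygous callus. All null values lay above all heterozygous values, with a difference of 0.998 (SE 0.27) or 1.997-fold, an unadjusted p of 0.00849 and an adjusted p of 0.999 in limma's test. Such separation was found for 2 of the 26, Ptx3 and Itgb2, both named for their low unadjusted p. Among all genes it was found for 10.1%, and for 4.14% with null callus higher. The marrow-poor null replicate 1 was the highest array for Ptx3, and no value without it is given.

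Itgb2, the shared beta chain of the integrin receptors for C3 fragments, gave 9.40, 9.75 and 9.87 in null callus and 9.36, 9.14 and 8.70 in heterozygous callus. Its groups did not overlap either, with a difference of 0.61 (SE 0.21), an unadjusted p of 0.024 and an adjusted p of 0.999 in limma's test. The lowest null value, 9.40, lay little above the highest heterozygous value, 9.36. The marrow-poor heterozygous replicate 3 was the lowest array for Itgb2, and no value without it is given. Itgam, the alpha chain of complement receptor CR3, differed by 0.80 (SE 0.38) with overlapping groups, and Vtn, which encodes vitronectin, by 0.47 (SE 0.25). Vsig4, a receptor for C3 fragments on tissue macrophages, lay between 3.38 and 4.07. Fcnb, the ficolin of neutrophils and monocytes, gave 4.94, 8.31 and 7.25 in null callus and 8.12, 8.09 and 4.55 in heterozygous callus, following the marrow transcripts as a member of the neutrophil list. Fcnb was named after its values were seen.

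**Figure D5:**
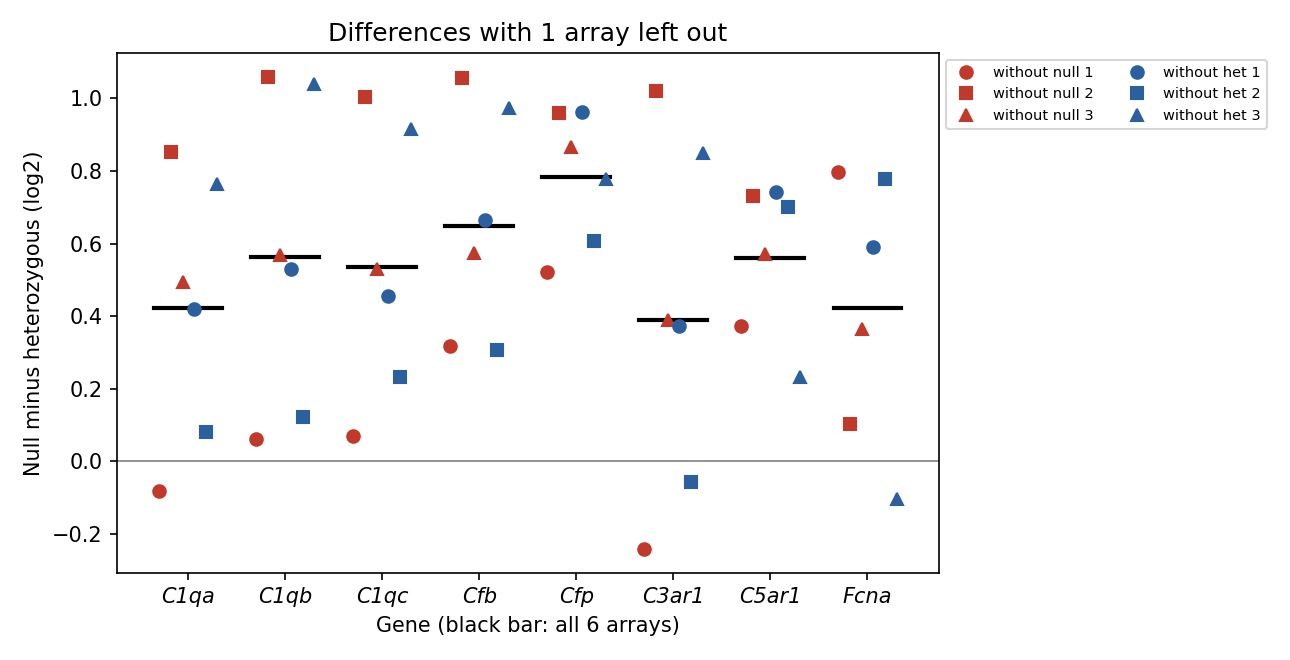
Null minus heterozygous difference on the log2 scale for 8 complement genes with all 6 arrays (black bar) and with each array left out in turn (red, a null array left out; blue, a heterozygous array left out). C1qa, C3ar1 and Fcna lie on both sides of 0 depending on the array left out. C1qb, C1qc, Cfb, C5ar1 and Cfp stay above 0, with lowest values of 0.06, 0.07, 0.31, 0.23 and 0.52. The Cfp values are of 1 probe set, and its second differed by 0.04 with all 6 arrays.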

How the data were processed

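Each sample was measured on 1 single-colour Affymetrix Mouse 430_2 array from biotin-labelled total RNA, per the labels' protocols. The deposited table holds 1 log2 value per probe set and array, taken as log2 from its range (1.65 to 14.49). The sources used here do not state how background, summarisation and normalisation were handled. Arrays have nearly equal distributions, so a common shift of all genes could not be seen, and differences of weak signals are compressed.

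Of 45101 rows, 64 control probe sets were left out. Symbols came from the platform annotation, with 34945 probe sets having 1 symbol, 932 several and 9160 none listed. All 28 measured genes matched RefSeq by gene identifier, with 0 symbols changed. All 45037 probe sets were fitted in R 4.3.3 with limma 3.58.1 (lmFit, then eBayes, on group means, two-sided, no covariate), with Benjamini-Hochberg adjustment over all of them at 0.05. The fit was tested on simulated data. The number of arrays limits the precision.

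The genes and lists were chosen with earlier results of these data known. Per-array values are given, by rule, for genes without overlap of the groups, genes with an unadjusted p under 0.05, the C1q chains, and in each role the 2 genes with the highest mean. Values of C1ra, C1s1, C2, Cr2 and Cd55 were added beyond that rule to complete their groups. Of the other complement genes the 4 with the lowest unadjusted p are named, and by name Vsig4 and Itgam, the second of which is also among the 4. Cfd was sought. No set test was run. Alternatives covered normalisation, weights, the prior, the test, a level filter, the choice of probe set, marrow content and each array left out.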

Additional observations from a re-analysis of the deposited data

How the results depend on the processing

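No complement gene passed limma's adjusted threshold of 0.05 under any alternative run, and 0 probe sets passed at all except 1 with the marrow score as a covariate. The count of complement genes at an unadjusted p under 0.05, 1 in all, was 2 with array weights (C2 and C9, where 12.1% of all genes reached it), 0 with a plain equal-variance test (4.89%), 4 with the marrow score as a covariate (C1qc, Cfb, Cfp and Fcna, against 10.1%), 2 without both marrow-poor arrays (C2 and C9, against 9.52%) and 0 with the mean of all probe sets of a gene (4.23%). It ran from 0 to 2 with 1 array left out, where 2.81% to 7.77% of all genes reached it. The count without overlap of the groups, 1 in all, was 9 without both marrow-poor arrays (43.2% of all genes), 0 with the mean of all probe sets (9.84%), and from 2 to 6 with 1 array left out, where it was 15.9% to 27% of all genes (6 and 27% without heterozygous replicate 3). From 17 to 23 of the 28 genes were higher in null callus with 1 array left out, against 46.4% to 51.4% of all genes. The median difference of 0.21 ran from 0.08 (without heterozygous replicate 2) to 0.21 with 1 array left out, and was 0.09 without null replicate 1. Over the 17 genes above the median level it was 0.39, against 0.017 over all genes above that level. The median difference of the other complement genes was 0.38 over the 11 above the median level. It ran from 0.0039 to 0.11 with 1 array left out.

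The sign of Masp1 turned with array weights (-0.030), without both marrow-poor arrays (-0.11) and in the range with 1 array left out (-0.18 to 0.27). That of C6 turned without both marrow-poor arrays (-0.011) and ran from -0.10 to 0.15. With 1 array left out C1qa ran from -0.082 to 0.85, C3ar1 from -0.24 to 1.02, Fcna from -0.10 to 0.80 and Clu from -0.18 to 0.12. The cause of these moves was not tested beyond the arrays left out. No paired analysis was possible because the labels give no replicate numbers or litters that the groups share. Pseudocounts do not apply to log2 values.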
